A study of Mus musculus with 10 samples.

Results

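The genes described here are 8 genes of sterol sensing, sterol movement and sterol export, followed in MC3T3-E1 cells with and without β-ecdysterone. They were chosen by name, as Srebf1, Srebf2, Scap, Insig1, Insig2, Stard4, Abca1 and Abcg1, and are 8 of the 29583 genes of the table. All 8 names were found once. No lipoprotein receptor is among them, so sterol uptake from outside the cell was read from a separate list of receptors.

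MC3T3-E1 is a calvaria-derived mouse line that can become osteoblasts, labelled as C57BL/6 and newborn, and the study used a single subclone at the third passage. β-Ecdysterone is a plant-derived steroid of the insect moulting hormone family. RNA was sequenced from cells kept in standard medium with 0, 100, 150 or 200 μM of it for 5 or 10 days, with 1 library for each dose and day. The 6 libraries with the compound are called treated and the 2 without it 0 μM. A further 2 libraries, A-5 and B-4, are labelled untreated and carry neither a dose nor a time. All 10 libraries come from the same wild-type line, although the labels give the source as bone marrow mesenchymal stem cells while the sample titles name MC3T3-E1. With 1 library per dose and day, the 3 doses of a day stood in for replicates of treated cells, so the p-values measure the spread between these dishes and doses.

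Cells sense their sterols in the membrane of the endoplasmic reticulum. When sterols are scarce, SCAP carries the membrane-bound SREBP proteins to the Golgi, where they are cut to release transcription factors for genes of sterol synthesis, fatty acid synthesis and lipoprotein uptake. When sterols are plentiful, SCAP stays behind bound to INSIG, while oxysterols activate the LXR receptors, which turn on the exporters ABCA1 and ABCG1.

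The libraries held between 27108562 and 58218009 counted reads, and a floor of 3 reads corresponded to 0.0499 to 0.118 CPM, the count relative to library size, in the 8 libraries with a dose. CPM values were scaled by TMM, a factor per library that corrects for differences in RNA composition. Over genes with at least 50 reads in a pair of libraries, the log2 ratio had an SD of 0.35 to 0.52 between libraries of the same treated day. For A-5 that SD was 0.61 to 0.65 against 0 μM and 1.02 to 1.22 against treated libraries. For B-4 it was 1.20 to 1.22 against 0 μM, 0.91 to 1.05 against treated libraries and 0.97 against A-5. B-4 thus stood apart from every group, and lay nearer to treated cells than to 0 μM although its label says untreated. A-5 and B-4 were kept out of the main tests and served as controls in alternative fits, and their values are given beside each gene. Those fits were not adjusted for day, since A-5 and B-4 carry no time. Of 10 osteoblast markers, 4 rose and 2 fell with treatment, against 22.6% of all tested genes higher and 20.8% lower, and none fell once the 0 μM library of day 5 was left out. Alpl was at 0 to 0.0633 CPM at 0 μM, under the floor, and at 16.2 to 64.9 CPM in treated cells. On the log2 scale Runx2 rose by 1.27, Sp7 by 3.74 and Ibsp by 8.61. The 2 that fell were Spp1 (-0.56, adjusted p = 0.032) and Dmp1 (-2.10, adjusted p = 0.019, edgeR). Col1a1 (0.008), Col1a2 (0.088), Bglap and Phex were not called. With A-5 and B-4 as the controls Runx2 was at 0.53 (adjusted p = 0.10, edgeR). In bulk RNA, fewer cells of a type and less RNA per cell cannot be told apart.

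The start-site regions of 4 of the genes are shown because they carry letters known from sterol-responsive promoters, and because Srebf2, Insig1 and Srebf1 on the one side and Abca1 on the other moved in opposite directions. RefSeq windows on GRCm38.p6 were found for 6 of the 8 genes, 11 windows in all. Of the 250 bases before each start site, those up to the first base of an exon of the gene in GENCODE M21 are printed, 5′ to 3′ on the strand of the gene. Srebf2 is at chr15:82147019-82147180 on the plus strand, Insig1 at chr5:28071162-28071362 on the plus strand, Abca1 at chr4:53159896-53160145 on the minus strand, and Srebf1, in 1 of its 3 windows, at chr11:60210472-60210721 on the minus strand. Capitals mark motif matches.
Srebf2: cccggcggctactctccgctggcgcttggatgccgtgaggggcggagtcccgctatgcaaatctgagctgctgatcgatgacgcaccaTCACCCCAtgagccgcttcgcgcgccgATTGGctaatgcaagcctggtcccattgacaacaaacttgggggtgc
Insig1: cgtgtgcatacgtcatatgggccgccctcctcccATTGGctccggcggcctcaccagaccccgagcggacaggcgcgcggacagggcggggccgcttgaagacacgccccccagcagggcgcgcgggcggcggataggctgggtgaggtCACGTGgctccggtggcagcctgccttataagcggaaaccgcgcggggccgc
Abca1: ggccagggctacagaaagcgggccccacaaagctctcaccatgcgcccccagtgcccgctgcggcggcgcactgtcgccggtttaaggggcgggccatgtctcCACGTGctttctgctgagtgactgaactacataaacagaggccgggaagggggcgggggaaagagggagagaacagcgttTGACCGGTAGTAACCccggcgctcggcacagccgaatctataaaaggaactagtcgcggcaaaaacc
Srebf1: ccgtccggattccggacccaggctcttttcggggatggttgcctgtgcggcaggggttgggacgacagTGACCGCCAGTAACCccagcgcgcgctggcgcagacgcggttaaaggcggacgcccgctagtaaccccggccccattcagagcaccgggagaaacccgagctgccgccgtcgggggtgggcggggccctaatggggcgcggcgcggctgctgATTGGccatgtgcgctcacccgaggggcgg
In Srebf2 the capitals are TCACCCCA, a match to the sterol response element core TCACNCCA, at -162 to -155 from the start site, and the reverse complement of CCAAT at -135 to -131. In Insig1 they are the E-box CACGTG at -101 to -96 and the reverse complement of CCAAT at -216 to -212. In Abca1 they are CACGTG at -147 to -142 and, at -67 to -53, the reverse complement of a degenerate DR4, the direct repeat with a spacer of 4 bases that LXR receptors bind. Srebf1 held a degenerate DR4 at -182 to -168 and CCAAT at -30 to -26, both as reverse complements. Both strands were searched, and the letters were chosen with these sequences in view. Of all 32851 windows of the same length, 3.67% held TCACNCCA, 1.05% the longer TCACNCCAC, 6.02% CACGTG, 33.8% CCAAT and 0.524% the degenerate DR4. TCACNCCAC was in none of the members' windows. Scap held CACGTG in 1 of its 2 windows, and Insig2 held CCAAT in 1 of its 3. These matches describe the letters and not binding.

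The first comparison asked how treated cells differed from cells at 0 μM across both days. Of the 8 genes, 7 passed the filter on low counts. Abca1 rose, Srebf1, Srebf2, Insig1, Insig2 and Stard4 fell, and Scap did neither at an adjusted p of 0.05 (edgeR quasi-likelihood F test adjusted for day, with Benjamini-Hochberg correction over all 16794 genes tested). The share of all tested genes called was 22.6% higher and 20.8% lower, so treatment was a broad change and 5 of 7 genes lower is set against that share. With a change beyond 2-fold, 13.4% of all genes were higher and 5.98% lower, and of the members Abca1 was higher while Srebf2, Insig1 and Stard4 were lower. The median log2 fold change of the 7 genes was -0.69, against 0.05 over all genes tested.

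**Figure D1:**
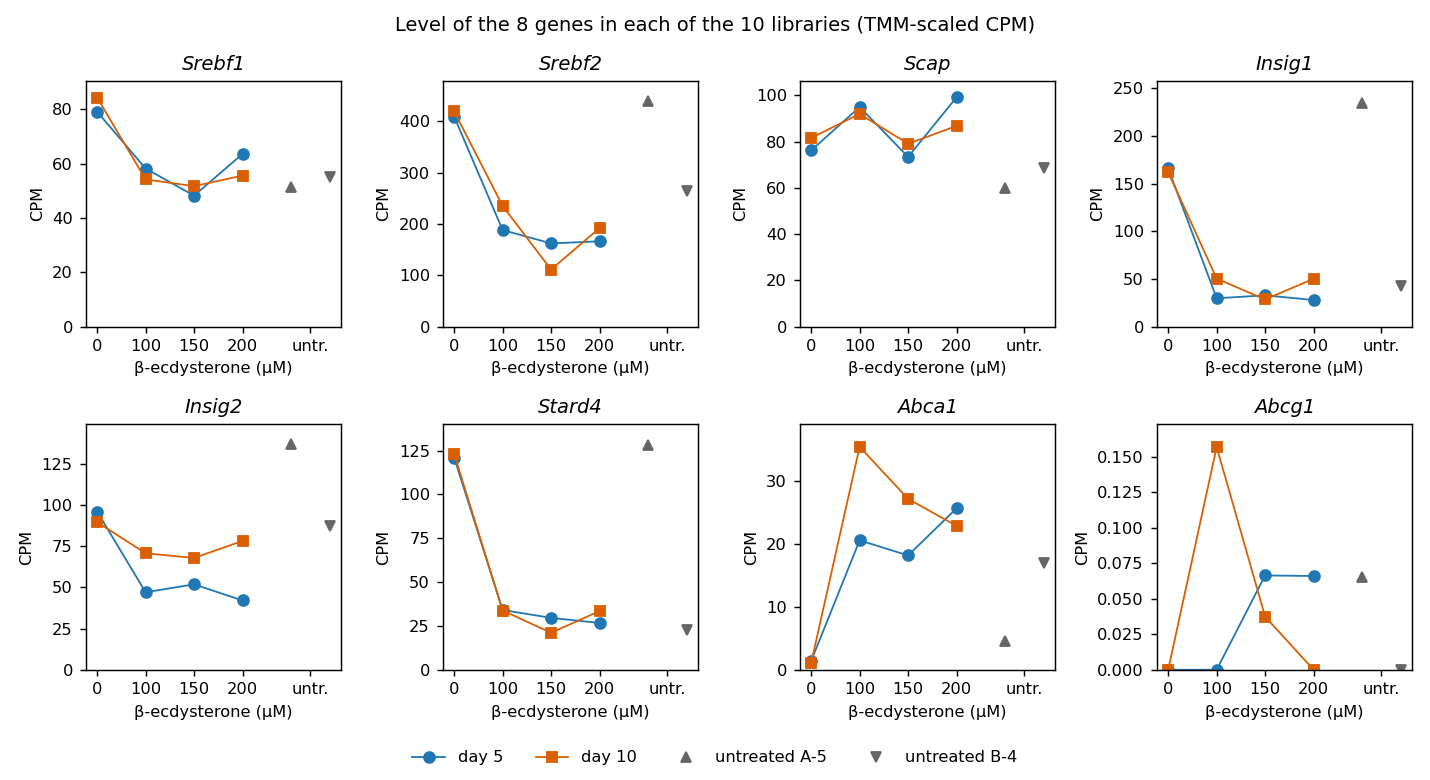
CPM of each of the 8 genes (y axis, own scale per gene, from 0) in each of the 10 libraries, by dose of β-ecdysterone in μM (x axis), with day 5 as blue circles, day 10 as orange squares and the untreated libraries A-5 and B-4 as grey triangles. At 0 μM Insig1 stood at 166 and 162 CPM and in treated libraries at 50.3 or less, while Abca1 went from 1.40 or less to 18.2 or more.

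Srebf2 encodes SREBP2, the transcription factor of the cholesterol synthesis and lipoprotein uptake genes, and it had the highest mean level of the 8 per length, although at 150 μM on day 10 it had 18.8 FPKM against 22.1 FPKM for Insig2. It stood at 409 CPM at 0 μM on day 5 and 419 CPM on day 10. Treated cells at 100, 150 and 200 μM had 188, 162 and 166 CPM on day 5 and 235, 111 and 192 CPM on day 10. All 6 treated libraries were below both 0 μM libraries, and the lowest was 150 μM on day 10. Srebf2 fell by 1.24 on the log2 scale (SE 0.20, adjusted p = 0.001, edgeR), with a 95% interval of -1.69 to -0.78, and was 2.36-fold higher at 0 μM. The fitted effect was -1.25 on day 5 and -1.23 on day 10. A-5 had 439 CPM, above both 0 μM libraries, and B-4 had 264 CPM, between the groups. In GENCODE M21 on GRCm38 the gene is on chromosome 15 from 82147181 to 82205379, on the plus strand. The microRNA gene Mir33, whose product is known to target Abca1, lies within Srebf2 on the same strand and was not analysed here.

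Srebf1 encodes SREBP1, whose isoforms drive fatty acid synthesis genes, and it is itself a known LXR target. It had 79.1 and 84.3 CPM at 0 μM. Treated cells had 58.2, 48.2 and 63.6 CPM on day 5 and 54.2, 51.7 and 55.6 CPM on day 10, at 100, 150 and 200 μM. The groups did not overlap, but the gap was small. Srebf1 fell by 0.57 on the log2 scale (SE 0.11, adjusted p = 0.0019, edgeR), a 1.48-fold difference. A-5 and B-4 had 51.5 and 54.9 CPM and thus lay inside the treated range, and when these 2 libraries served as controls instead the log2 fold change was 0.06 (adjusted p = 0.75, edgeR). The fall of Srebf1 therefore rested on the choice of control libraries. Srebf1 lies on chromosome 11 from 60199089 to 60222581, on the minus strand. Rai1, on the opposite strand, overlaps Srebf1 by 109 bases, and how the counts treated strand is not given in the sources used here.

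Scap encodes the escort protein that binds sterols and carries the SREBPs to the Golgi. It had 76.2 and 81.6 CPM at 0 μM and 73.4 to 99.2 CPM in the treated libraries, with a median of 89.4 CPM, so the groups overlapped. Its log2 fold change was 0.15 with a 95% interval of -0.12 to 0.42 (adjusted p = 0.35, edgeR), which leaves room for a change of up to that size. The escort was thus the only tested gene of the 7 without a call, and per length its level at 0 μM (mean 17.1 FPKM) was like that of Srebf1 (mean 17.3 FPKM). Scap lies on chromosome 9 from 110333288 to 110384950, on the plus strand. Against the untreated libraries, which had 59.8 and 68.4 CPM, Scap was higher in treated cells by 0.46 on the log2 scale (adjusted p = 0.04, edgeR).

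Insig1 encodes the INSIG protein that holds SCAP in the endoplasmic reticulum, and it is a classical SREBP target. It had 166 and 162 CPM at 0 μM. On day 5 treated cells had 29.7, 32.8 and 27.9 CPM and on day 10 they had 50.3, 28.5 and 50.1 CPM, at 100, 150 and 200 μM. Every treated library was far below both 0 μM libraries. Insig1 fell by 2.20 on the log2 scale (SE 0.19, adjusted p = 2.2e-05, edgeR), with a 95% interval of -2.62 to -1.78, and was 4.60-fold higher at 0 μM. A-5 had 235 CPM, the highest value of all 10 libraries, and B-4 had 43.0 CPM, within the treated range. The gene is on chromosome 5 from 28071363 to 28078662, on the plus strand.

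Insig2 encodes the second INSIG, which in most tissues is not a strong SREBP target. It had 95.9 and 89.5 CPM at 0 μM, 47.0, 51.8 and 42.0 CPM in treated cells on day 5, and 70.6, 67.8 and 78.1 CPM on day 10, at 100, 150 and 200 μM. The day 10 values lay between those of day 5 and of 0 μM without overlapping either. Over both days Insig2 fell by 0.69 on the log2 scale (SE 0.15, adjusted p = 0.004, edgeR), a 1.62-fold difference. On day 5 alone the effect was -1.03 (adjusted p = 0.00095), and on day 10 alone it was -0.31 (adjusted p = 0.13), which is also the value when the 0 μM library of day 5 is left out. A-5 had 137 CPM and B-4 had 87.1 CPM, and Insig2 was the only one of the 6 changed members for which B-4 lay nearer to 0 μM. Its locus is on chromosome 1 from 121304353 to 121332589, on the minus strand.

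Per length, the balance of the pair turned over. The ratio of Insig1 to Insig2 in FPKM, a level per transcript length and library size, was 1.63 and 1.71 at 0 μM. In treated cells it was 0.625, 0.620 and 0.655 on day 5 and 0.692, 0.409 and 0.631 on day 10, at 100, 150 and 200 μM. A-5 stood at 1.50 and B-4 at 0.461. Insig1 was thus the more abundant INSIG transcript in both 0 μM libraries and in A-5, and the less abundant in all 6 treated libraries and in B-4. This ratio was not tested beyond the separate tests of the pair.

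Stard4 encodes a soluble protein that moves cholesterol between membranes, and it is a known SREBP2 target. It had 121 and 123 CPM at 0 μM. Treated cells had 34.1, 29.6 and 26.7 CPM on day 5 and 33.8, 21.1 and 33.5 CPM on day 10, at 100, 150 and 200 μM. No treated library came near the 0 μM level. Stard4 fell by 2.03 on the log2 scale (SE 0.15, adjusted p = 1.1e-05, edgeR), with a 95% interval of -2.38 to -1.69, and was 4.10-fold higher at 0 μM. A-5 had 128 CPM, like 0 μM, and B-4 had 22.7 CPM, inside the treated range. With A-5 and B-4 as the controls the log2 fold change was -1.34 (adjusted p = 0.063, edgeR).

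Abca1 encodes the transporter that loads cellular cholesterol onto apolipoprotein A-I, the first step of high-density lipoprotein formation. It was low at 0 μM, with 71 and 35 reads or 1.40 and 1.11 CPM. Treated cells had 20.6, 18.2 and 25.7 CPM on day 5 and 35.5, 27.2 and 22.9 CPM on day 10, at 100, 150 and 200 μM. The groups were far apart, and the highest value was 100 μM on day 10. Abca1 rose by 4.25 on the log2 scale (SE 0.28, adjusted p = 4.7e-06, edgeR), with a 95% interval of 3.63 to 4.88, which is a 19.1-fold increase. The effect was 3.94 on day 5 and 4.68 on day 10. A-5 had 4.58 CPM and B-4 had 17.0 CPM, both above the 0 μM libraries and below all treated ones. With A-5 and B-4 as the only controls the log2 fold change was 1.22 (adjusted p = 0.078, edgeR), and with B-4 added to 0 μM it was 1.96 (adjusted p = 0.10, edgeR), so the size of the rise and its call depended on which libraries served as controls. In GENCODE M21 on GRCm38 the gene is on chromosome 4 from 53030787 to 53159895, on the minus strand.

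Abcg1 encodes the partner exporter that passes cholesterol to mature high-density lipoprotein. It had 0 reads in both 0 μM libraries. In treated cells it had 0, 4 and 2 reads on day 5 and 4, 2 and 0 reads on day 10, at 100, 150 and 200 μM, and A-5 and B-4 had 2 and 0. With 14 reads over all 10 libraries it did not pass the filter and has no fold change. Only 2 treated libraries were above the floor of 3 reads, so a change of Abcg1 was not detectable at this depth. In GENCODE M21 it lies on chromosome 17 from 31057675 to 31117988, on the plus strand.

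**Figure D2:**
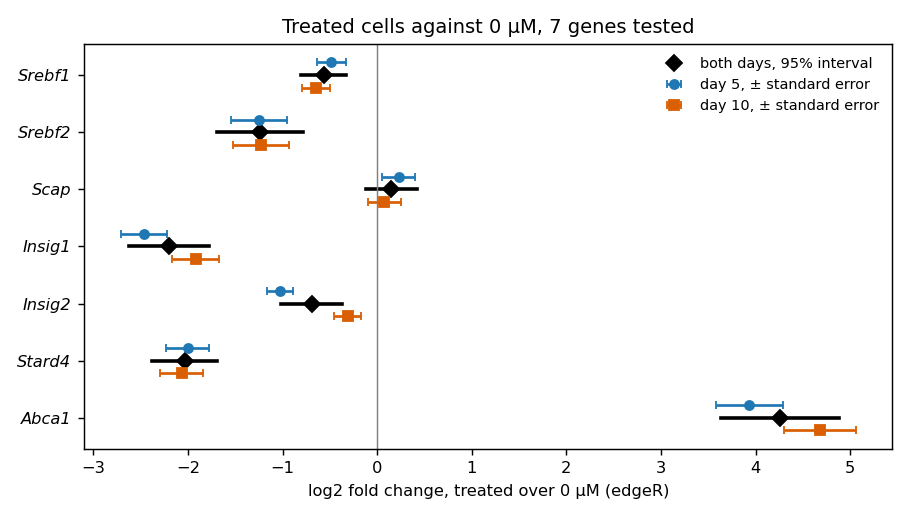
Log2 fold change of treated over 0 μM (x axis) for the 7 genes tested (y axis), with the fit over both days as black diamonds and 95% intervals, and the effects of day 5 (blue circles) and day 10 (orange squares) with standard errors. The interval of Scap spans 0, the intervals of 5 genes lie below it, and that of Abca1 lies from 3.63 to 4.88.

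Compared per length within a group, Srebf2 was the most abundant at 0 μM, with a mean of 74.7 FPKM over the 2 libraries. It was followed by Insig1 at 55.3 FPKM, Insig2 at 33.1 FPKM, Stard4 at 22.9 FPKM, Srebf1 at 17.3 FPKM, Scap at 17.1 FPKM, Abca1 at 0.11 FPKM and Abcg1, which was listed at 0. All neighbours in that order were separated in both libraries except Srebf1 and Scap, whose ranges overlapped. In treated cells the order was Srebf2 (mean 30.5 FPKM over 6 libraries), Insig2 (19.7), Scap (18.3), Insig1 (11.8), Srebf1 (11.3), Stard4 (5.26), Abca1 (2.12) and Abcg1 (0.0118 FPKM). Neighbouring ranges overlapped from Srebf2 down to Srebf1 and did not overlap below Srebf1. Insig1 went from just below Srebf2 to below Insig2 and Scap.

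The second comparison asked whether the genes differed between day 10 and day 5 in treated cells. Of all genes tested, 2.08% were higher on day 10 and 0.718% lower. Insig2 was the only member called, and rose by 0.62 on the log2 scale (SE 0.10, adjusted p = 0.02, edgeR). It was higher on day 10 at each of the 3 doses. The call was lost when the day 5 library at 200 μM was left out (adjusted p = 0.12, edgeR) and when that of day 10 was (adjusted p = 0.098, edgeR). Insig1 differed by 0.51 (adjusted p = 0.21) and Abca1 by 0.41 (adjusted p = 0.26, edgeR). For Stard4 the difference was -0.03, with a 95% interval of -0.43 to 0.37.

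Whether the effect of treatment itself differed between days was tested as an interaction. The log2 fold change was called higher on day 10 than on day 5 for 0% of the 16794 genes and lower for 0.0119%, with 1395 genes at an unadjusted p under 0.05. No member was called. Insig2 alone passed an unadjusted threshold of 0.05, with a difference between days of 0.72 on the log2 scale (SE 0.21, adjusted p = 0.45, edgeR). With a single 0 μM library per day, that library was taken to vary like the treated ones.

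Between 100 and 200 μM no gene of the table had a dose slope past the threshold (0% higher and 0% lower of 16020, with 380 at an unadjusted p under 0.05, edgeR). The members' slopes per 50 μM ran from -0.12 for Srebf2 to 0.04 for Srebf1 on the log2 scale. The widest interval, that of Srebf2, went from -0.42 to 0.17. Slopes inside such intervals were not detectable with 6 libraries. At the lowest dose used, 100 μM, each of the 6 changed members differed from 0 μM in the direction of its call on both days. That is 1 library against 1 on each day, and these libraries also entered the calls. The lowest dose was not tested on its own.

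The other genes of the pathway were read from 7 lists of 86 distinct genes in all, of which 81 were tested, 11 rose and 31 fell. Over all tested genes 22.6% were higher and 20.8% lower. Of the 20 sterol synthesis enzymes, known SREBP2 targets, 16 fell and all 16 of these fell beyond 2-fold, 1 rose, and 3 did neither. The median log2 fold change was -1.39. Hmgcs1, a synthase early in the pathway, fell by 1.39, and was at -1.01 with A-5 and B-4 as the controls (adjusted p = 0.084, edgeR). Idi1, the isopentenyl diphosphate isomerase, fell by 2.32, and Fdps, the farnesyl diphosphate synthase, fell by 2.08. Ebp, the sterol isomerase late in the pathway, rose by 1.21 (SE 0.23, adjusted p = 0.0022, edgeR), but by 0.53 with A-5 and B-4 as the controls (adjusted p = 0.18). Of 14 fatty acid synthesis genes, known SREBP1 targets, 8 fell and 1 rose, with a median of -0.53. Fads2 fell by 2.21, Elovl6 by 1.42 and Fasn by 1.10. With A-5 and B-4 as the controls 2 genes of this list were called lower. Fads2 (-1.33, adjusted p = 0.065), Elovl6 (-1.02, adjusted p = 0.062) and Fasn (-0.59, adjusted p = 0.14, edgeR) were not among them. The share of all genes called in that fit was not computed. Lpin1 was at 0.43 (adjusted p = 0.043), but with the day 10 library at 0 μM left out it was at 0.12 (adjusted p = 0.63, edgeR), and its call was also lost when any of 4 treated libraries was left out.

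In the uptake list of 11 genes 4 fell and 3 rose, with a median of -0.05. Of all tested genes 20.8% were lower and 22.6% higher, and 3 of 11 is near the latter share. Lrp8, a receptor of the lipoprotein receptor family, fell by 1.49 (SE 0.18, adjusted p = 0.00017, edgeR) and Scarb1, the HDL receptor, by 1.15. With A-5 and B-4 as the controls 1 gene of the list was called lower and none higher, without a share of all genes beside it. Lrp8 was then at -0.87 (adjusted p = 0.20) and Scarb1 at -0.27 (adjusted p = 0.56, edgeR). Npc1 and Npc2, which hand cholesterol out of lysosomes, were higher by 1.07 and 0.38, and Vldlr by 1.03. Of the 3 genes called higher, 1 was left without either 0 μM library. Vldlr was then at 0.52 without that of day 5 (adjusted p = 0.38), and Npc1 at 0.77 without that of day 10 (adjusted p = 0.13, edgeR). Npc2 was at 0.31 without that of day 10 (adjusted p = 0.22) and at -0.17 with A-5 and B-4 as the controls (adjusted p = 0.46, edgeR). Among 10 genes of SREBP processing and INSIG turnover 2 rose and none fell at an adjusted p of 0.05, with a median of 0.09, and 2 of 10 is near the 22.6% of all tested genes that were higher. They were Rnf139, an E3 ligase of the endoplasmic reticulum, at 0.77, and Mbtps1, the site-1 protease that cuts SREBPs, at 0.53. Rnf139 was at -0.02 with A-5 and B-4 as the controls (adjusted p = 0.95, edgeR). Among 13 genes of intracellular sterol transport and storage 3 rose and none fell, again near that share, and 1 rose once the 0 μM library of day 10 was left out. Gramd1b and Gramd1a, which carry plasma membrane cholesterol inward, were at 0.58 and 0.41. Without that library they were at 0.49 (adjusted p = 0.26) and 0.41 (adjusted p = 0.054, edgeR), and Gramd1a was at -0.31 with A-5 and B-4 as the controls (adjusted p = 0.11, edgeR).

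**Figure D3:**
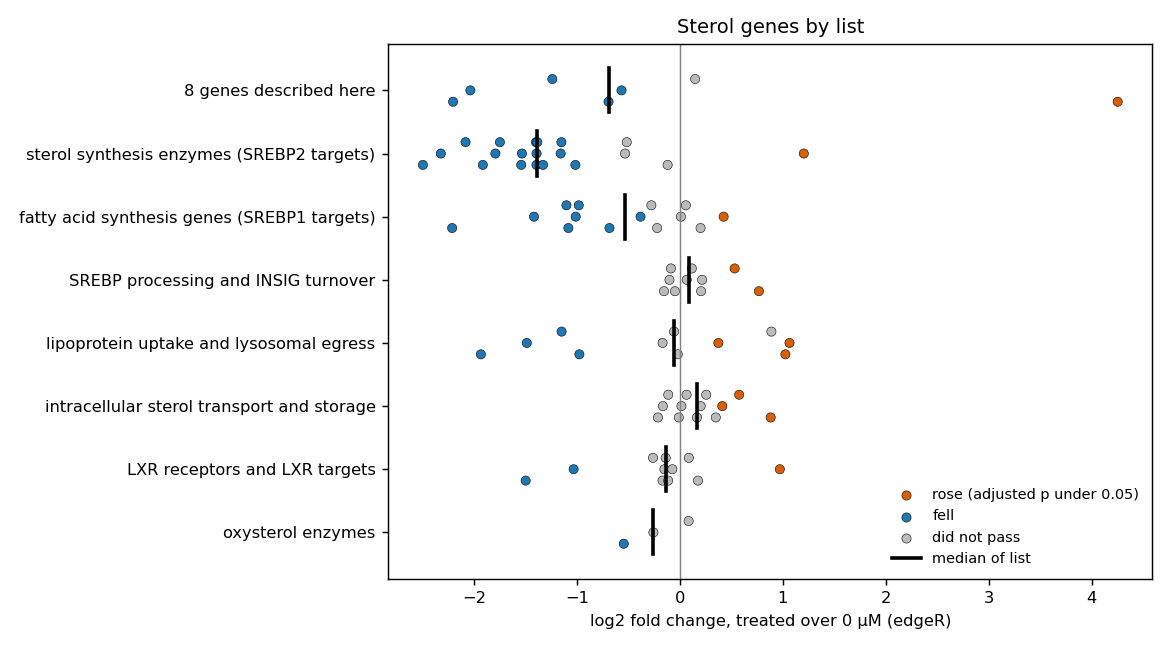
Log2 fold change of treated over 0 μM (x axis) for every tested gene of the 8 described here and of 7 other lists (y axis), with genes that rose in orange, genes that fell in blue, genes that did not pass in grey and the list's median as a black bar. The synthesis enzymes lie mostly below -1 with Ebp at 1.21, and Abca1 at 4.25 lies apart from every other gene plotted.

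A list set up for LXR receptors and other LXR targets held 13 genes, with Rxra, Rxrb and Abca7 among them. Whether each gene of it is an LXR target was not checked. Of the 13 genes 11 were tested, 1 rose and 2 fell, with a median of -0.14. Neither count was above the share of all tested genes, 22.6% higher and 20.8% lower. Nr1h3, which encodes LXRα, rose by 0.97 (SE 0.25, adjusted p = 0.011, edgeR), but this call was lost when the day 10 library at 0 μM was left out (0.77, adjusted p = 0.13) and with A-5 and B-4 as the controls (0.34, adjusted p = 0.42). Nr1h2, which encodes LXRβ, had a log2 fold change of -0.14 (adjusted p = 0.44), and Mylip, an LXR-driven ligase that degrades lipoprotein receptors, had -0.17 (adjusted p = 0.55). Arl4c and Abca7 fell by 1.50 and 1.03. Of 6 oxysterol enzymes 3 were tested, of which Hsd3b7 fell by 0.54 and none rose at an adjusted p of 0.05. Hsd3b7 lost its call when either 0 μM library was left out (adjusted p = 0.053 for day 5 and 0.12 for day 10, edgeR).

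A-5 and B-4 also differed from each other over these lists. Of the 17 synthesis enzymes that rose or fell, B-4 was nearer to the treated mean for 17 and A-5 for 0. Of the 6 changed members, B-4 was nearer to treated cells for 5 and A-5 for 1, which was Srebf1. The same count over all called genes was not made. B-4 also lay nearer to treated cells than to 0 μM across the genes compared above. When A-5 and B-4 replaced the 0 μM libraries, 3 members were called lower, namely Srebf2, Insig1 and Insig2. In that fit 10 synthesis enzymes were called lower in place of 16. The share of all genes called in it was not computed, so these counts have no background beside them. How long A-5 and B-4 were in culture is not given in the labels.

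**Figure D4:**
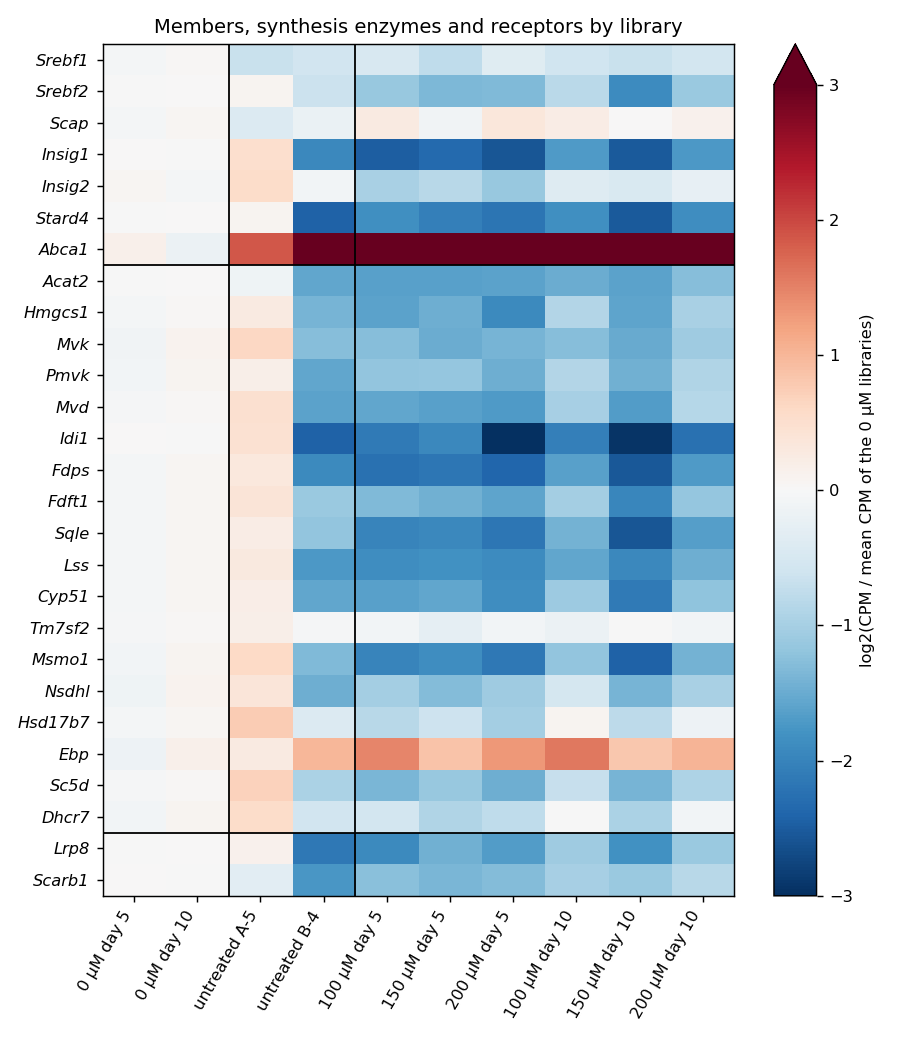
Log2 ratio of CPM to the mean of the 2 libraries at 0 μM (colour, capped at 3) for 7 members, 18 of the sterol synthesis enzymes and 2 receptors, Lrp8 and Scarb1 (rows) in the 10 libraries (columns, with lines between 0 μM, untreated and treated libraries). A-5 is pale like 0 μM in most rows, B-4 is blue in most of the rows that are blue in treated cells, and Abca1 is red in A-5, in B-4 and in all treated libraries.

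Markers of other cell types were summed in the same groups. The summed level of 6 endothelial markers was 1.93 to 1.96 CPM at 0 μM and 5.49 to 8.25 CPM in treated cells, with Kdr at 0 at 0 μM. That of 8 adipocyte markers was 3.48 to 3.73 CPM and 3.81 to 7.02 CPM, with Cfd at 0 in all libraries and Adipoq and Cidec at 0 at 0 μM. That of 8 macrophage markers overlapped between the groups, at 28.8 to 41.2 CPM and 36.5 to 68.5 CPM, with Ptprc and Adgre1 at 0 at 0 μM. Of the genes tested, 3 of 5 endothelial, 1 of 5 adipocyte and 2 of 6 macrophage markers rose, and 1 macrophage marker fell. Over all tested genes 22.6% were higher and 20.8% lower. With limma on log2(FPKM + 1), a scale that understates low genes, 0 endothelial markers were called higher. The part of these markers in the change of Abca1, which macrophages are known to express, was not tested.

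The genes most like each member were found by the root-mean-square (RMS) difference of their log2 CPM profiles over the 10 libraries, each centred on its mean. Candidates were the Ensembl genes with a symbol that were tested in treated against 0 μM, so new loci were left out. Nearest to Insig1 were Fdps (RMS 0.12), Msmo1 (0.22) and Lss (0.29), all sterol synthesis enzymes, and the profile of Insig1 itself had a spread of 1.12. Nearest to Stard4 were Fads2 (0.11), Cx3cl1 (0.18) and Lss (0.23), against a spread of 1.0. Cx3cl1, the chemokine fractalkine, averaged 102 CPM at 0 μM and 24.0 CPM in treated cells. Srebf2 lay nearest to 9530077C05Rik, Bhlhe40 and Fdft1, each at 0.19. Insig2 lay nearest to Acot13 (0.14), Mapk8ip1 (0.15) and Tmem50b (0.15).

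No candidate gene came within 0.25 of Abca1, whose spread was 1.72. Its nearest were Ms4a4d (0.26), Rasl11b (0.37) and Cst3 (0.42). Cst3, the secreted protease inhibitor cystatin C, averaged 169 CPM at 0 μM and 2690 CPM in treated cells. The profiles of Srebf1 and Scap were nearly flat, with 2452 and 2296 genes within 0.25, so that their nearest genes carry little information. They were Mtmr14, Ulk1 and Ccm2 for Srebf1 and Pigt, Ptov1 and Phf12 for Scap. Over the 8 libraries with a dose, 0 or 1 of the 3 nearest genes of each member stayed among its nearest 3, and with log2 FPKM in place of CPM 0 to 2 did, with 0 for Insig2 and Abca1. These names thus depend on the untreated libraries and on the unit.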

How the data were processed

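MC3T3-E1 poly(A) RNA was sequenced by the authors in 10 libraries. The deposited table gives raw counts and FPKM per gene for 22036 Ensembl genes and 7547 new loci. The authors' own 39 comparison columns were not used. The submitters' processing notes name HISAT2 2.0.4 and GATK 3.2-2 with no role, and the genome build and counting program are not given in the sources used here. Of the Ensembl IDs, 22022 were found in GENCODE M21.

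Deposited counts were tested with edgeR 4.0.16 in R 4.3.3 (TMM, filterByExpr, quasi-likelihood F test, Benjamini-Hochberg over all genes tested). Treated was compared with 0 μM with day as covariate (residual df 5), day 10 with day 5 in treated libraries, a slope per 50 μM, and treatment by day. Rose or fell means an adjusted p under 0.05. FPKM as deposited by the authors served for levels between genes, and for limma 3.58.1 on log2(FPKM + 1) as an alternative, with a mean of at least 0.5 FPKM. DESeq2 1.42.0, other filters and scalings, other controls and leaving out each library were the other alternatives. The fits were tested on simulated data. Log CPM profiles used a prior count of 2. CPM floors cover counting error only.

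The members and lists were chosen with earlier results of these data known. Genes named are all members, Hmgcs1, Mylip, Nr1h2, Nr1h3 and a few others set by name. Per sterol list they are up to 3 that rose and 3 that fell most, with a mean of at least 5 CPM. The 3 nearest profiles per member and the osteoblast markers are named as well. Some genes that this rule names are not reported here. Start-site sequences are from RefSeq on GRCm38.p6.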

Additional observations from a re-analysis of the deposited data

Results flagged for a closer look

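Abca1 was above its 0 μM level in both libraries labelled untreated, which entered no main comparison and served as controls in alternative fits alone. Its CPM was 4.58 in A-5 and 17.0 in B-4, against 1.40 and 1.11 CPM in the 0 μM libraries. Each was more than 2 times the higher of the 0 μM values. No cause was tested.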

How the results depend on the processing

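Over 20 alternatives, the treated against 0 μM log2 fold change ran from -1.36 to -0.995 for Srebf2 and from -2.47 to -1.75 for Insig1, both called in every one. Members called lower went from 5 to 3 when A-5 and B-4 replaced 0 μM. Members called higher went from 1 to 0 with B-4 added to 0 μM, an alternative chosen after seeing the data. With A-5 and B-4 in place of 0 μM, Abca1 also lost its call (1.22, adjusted p = 0.078, edgeR). Scap was called higher there instead (0.46, adjusted p = 0.04, edgeR). The shares of all genes called in these fits were not computed. When A-5 and B-4 replaced 0 μM the sign turned for Srebf1 (0.059), Rnf139 (-0.021), Npc2 (-0.17) and Gramd1a (-0.31), and Srebf1 had adjusted p = 0.053 with A-5 added, 0.073 with B-4 and 0.17 with both (edgeR). On the log2(FPKM + 1) scale, which understates low genes, limma gave Abca1 1.48. Leaving out 1 library each, Mylip ran from -0.591 to 0.323. A fit without a 0 μM library assumes that the remaining one varies like the others.

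For day 10 against day 5, members called higher were 2 with genes of at least 1 count and 0 to 2 when 1 library was left out. With dose as replicate block, which does not mark shared cultures, Insig2 differed by 0.62 (adjusted p = 0.026, edgeR) and Srebf2 by -0.00019. Without TMM the median of all genes moved to -0.13 and Srebf2 to -0.058, and for treated against 0 μM the filter of at least 1 count moved the median from 0.05 to 0.27. Dose slopes turned sign without TMM for Scap (0.011) and Insig2 (0.018), and with genes of at least 1 count for Insig2 (0.002). The Srebf2 difference between days in the effect was -0.056 without TMM. With single libraries left out, uncalled values changed sign within these ranges. For day they were Srebf1 -0.172 to 0.018, Srebf2 -0.18 to 0.31, Scap -0.170 to 0.031 and Stard4 -0.14 to 0.16. For dose they were Srebf1 -0.041 to 0.087, Srebf2 -0.280 to 0.081, Scap -0.108 to 0.049, Insig1 -0.21 to 0.13, Insig2 -0.077 to 0.085 and Abca1 -0.291 to 0.079. For the difference between days they were Srebf2 -0.22 to 0.28 and Stard4 -0.17 to 0.13. The cause was not tested.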
